A study of Homo sapiens with 24 samples.

Results

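EVI1-WT was compared with the empty vector in untreated HEK293 cells, a human embryonic kidney line, in 6 of the 24 samples of the series. The samples were the 3 libraries labelled EVI1-WT and untreated and the 3 labelled empty vector and untreated, 1 of each in each of 3 batches. Of the 11579 rows of the table, the 1131 whose identifier lies on chromosome 1 of GRCh38 were described by name, and the other rows were used only as unnamed distributions. The members were taken by label and position and not by their values, although earlier results of these data were known.

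The series holds 8 groups of 3 samples, made by 4 transfection states with and without 150 μM hydrogen peroxide for 8 h. HEK293 cells were left untransfected, or were transiently transfected with pCMV-flag (the empty vector), with pCMV-EVI1-WT-flag or with pCMV-EVI1-AQA-flag. In EVI1-AQA the serines of the carboxy-terminal SQS motif are replaced by alanine. The 6 samples compared received no hydrogen peroxide, carried the same CMV promoter and flag tag on the plasmid, and differed in the EVI1 insert. The growth notes in the labels also describe luciferase reporter plasmids transfected along with EVI1, and whether these libraries received them is not given in the sources used here. Both constructs were expressed from plasmids in a pool of cells, so a library averages transfected and untransfected cells, and fewer expressing cells cannot be told apart from less change per cell. Nothing in the labels says how the 3 batches of cultures were related, so the p-values measure the spread between these samples.

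EVI1 is a zinc finger transcription factor encoded at the MECOM locus on chromosome 3, and its overexpression marks aggressive myeloid leukaemia. The protein binds DNA through an amino-terminal and a carboxy-terminal zinc finger domain, recruits the CtBP co-repressors and histone deacetylases, and opposes TGF-beta signalling. Wild-type EVI1 is known both to repress and to activate transcription, depending on the gene and on the cell.

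The promoters of the chromosome 1 genes with the lowest p in each direction are shown here because EVI1 is a DNA-binding protein and the letters AGAT are common to the sequences published for both of its zinc finger domains. Each run is the 250 bases before the RefSeq start on GRCh38.p14, read 5′ to 3′ on the strand of the gene, with AGAT or its reverse complement ATCT in capitals. ORC1 (chr1:52404424-52404673, minus strand) and SFN (chr1:26862899-26863148, plus strand) were the genes with the lowest p among those higher with EVI1-WT. KAZN (chr1:14598435-14598684, plus strand, at a start inside the annotated gene) and PARS2 (chr1:54764524-54764773, minus strand) were those among the genes that were lower.
ORC1: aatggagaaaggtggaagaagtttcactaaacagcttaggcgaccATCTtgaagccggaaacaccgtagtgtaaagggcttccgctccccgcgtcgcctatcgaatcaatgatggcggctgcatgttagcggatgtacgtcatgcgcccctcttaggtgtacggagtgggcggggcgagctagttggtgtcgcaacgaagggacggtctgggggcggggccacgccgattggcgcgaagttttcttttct
SFN: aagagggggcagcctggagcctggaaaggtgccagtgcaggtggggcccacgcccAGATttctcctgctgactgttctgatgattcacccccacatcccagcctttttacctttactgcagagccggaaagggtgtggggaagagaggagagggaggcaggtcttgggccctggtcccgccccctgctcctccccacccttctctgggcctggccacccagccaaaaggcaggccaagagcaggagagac
KAZN: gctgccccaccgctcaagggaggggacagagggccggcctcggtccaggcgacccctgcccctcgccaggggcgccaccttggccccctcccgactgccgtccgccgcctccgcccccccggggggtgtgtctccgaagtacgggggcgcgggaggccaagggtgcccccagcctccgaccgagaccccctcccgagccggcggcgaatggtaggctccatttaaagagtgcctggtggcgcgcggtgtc
PARS2: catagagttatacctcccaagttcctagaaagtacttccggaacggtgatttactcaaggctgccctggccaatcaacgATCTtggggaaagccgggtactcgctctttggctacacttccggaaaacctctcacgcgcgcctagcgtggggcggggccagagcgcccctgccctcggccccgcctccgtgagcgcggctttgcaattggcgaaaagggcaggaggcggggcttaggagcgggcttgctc

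The letters were common in promoters at large. AGAT on either strand was present in the 250 bases of 11 of 21 genes called higher and 13 of 21 called lower that had a RefSeq window, against 50.3% of the 937 chromosome 1 rows with a window and 64.2% of all 35116 promoters. The longer sequences were searched in windows of 300 bases, which add 50 bases after the start. GACAAGATA, for the amino-terminal domain, was in 0.0968% of all promoters, GAAGATGAG, for the carboxy-terminal domain, in 0.347%, and AGATAAG in 2.68%. None of the 3 was found in the 42 windows of called genes. A match is a string of letters and not a binding site, and no match speaks only of these windows.

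Whether the row labels could be trusted was checked before any gene was named. On chromosome 1, 1045 of 2061 protein-coding genes (50.7%) appeared as a row but only 86 of 3598 other genes (2.39%). On chromosomes 2 to 22 the shares were 19.3% and 16.4%, so coding genes were hardly more often listed there than pseudogenes and other non-coding genes. Chromosome X resembled chromosome 1, with 43.1% and 2.46%, but was not described.

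**Figure D1:**
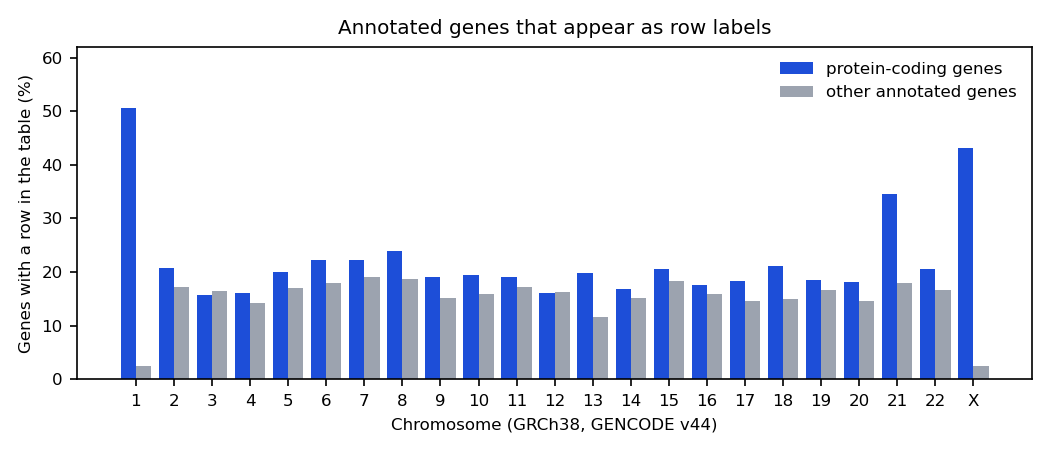
Share of annotated genes with a row in the table (percent, y axis) for each chromosome (x axis), with protein-coding genes as blue bars and all other annotated genes as grey bars. Blue stands far above grey on chromosome 1 (50.7% against 2.39%) and on X, and the bars are close to each other on most of the other chromosomes.

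The values were read as log2 expression (the base is not stated), centred so that each row has a mean of 0 over the 8 samples of a batch. A value of 0.5 therefore means 0.5 log2 units above the batch mean of that gene. The table holds no absolute level and no read count, so the depth behind a value is unknown and levels of different genes cannot be compared. None of the 8 blood cell markers and none of the 2 endothelial markers on chromosome 1 had a row. Of the embryonic kidney and embryonic markers STMN1 and LMO4 had a row and LIN28A had none, and of the keratinocyte markers only SFN had one.

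The EVI1 gene itself is on chromosome 3, where the labels cannot be relied on, so its expression was not read from the row that carries its name. One row outside chromosome 1, left unnamed for the same reason, separated the samples by the presence of an EVI1 insert. Its values were -2.18, -4.10 and -3.47 with the empty vector and 3.82, 3.98 and 3.13 with EVI1-WT in batches 1, 2 and 3. The 3 untransfected samples were at -1.64, -4.49 and -3.48, and the 3 EVI1-AQA samples at 4.14, 4.05 and 2.62. All 6 untreated samples with an EVI1 plasmid were thus high and all 6 without one were low. The difference between EVI1-WT and the empty vector was 6.89 (SE 0.49, n = 3 against 3), with an adjusted p of 0.000294 by limma over all rows.

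This was the only row past an adjusted p of 0.05 by limma in the untreated comparison. The next smallest adjusted p was 0.331, and the next largest difference of any row was 1.79 in size. At an unadjusted p under 0.05, 566 of 11579 rows were called (4.89%), 298 of them higher (2.57%) and 268 lower (2.31%) with EVI1-WT. A row is called below at this unadjusted threshold, in a limma fit of the 12 untreated samples with the batch as a block. Calls that involve hydrogen peroxide came from a fit of all 24 samples with the same block.

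On chromosome 1, 58 of 1131 rows were called, against 4.89% of all rows. EVI1-WT was higher in 28 of them (2.57% of all rows were called higher) and lower in 30 (2.31% of all rows were called lower). The shares on chromosome 1, 2.48% and 2.65%, were close to that background. No chromosome 1 row passed an adjusted p of 0.05, the smallest being 0.669 by limma, while 19 had an unadjusted p under 0.01. Protein-coding genes made up 25 of the higher and 24 of the lower calls, and 1045 of the 1131 rows. Of the coding rows 4.69% were called, against 5.13% of all chromosome 1 rows.

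Differences were small across the chromosome. Their median was -0.01 and their SD 0.23 on the log2 scale, with extremes of -1.07 for C1orf74 and 1.02 for SFN, the only 2 rows past 1 log2 unit. The difference exceeded 0.5 in size in 49 rows (4.33%). The median SE was 0.19, so that the 95% confidence interval reached 0.42 to either side at the median. For 1053 rows (93.1%) the whole interval lay between -1 and 1, and for 414 (36.6%) between -0.5 and 0.5. A change of more than 2-fold was therefore outside the interval for most chromosome 1 genes, while changes of around 0.5 were within reach of the error for most.

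**Figure D2:**
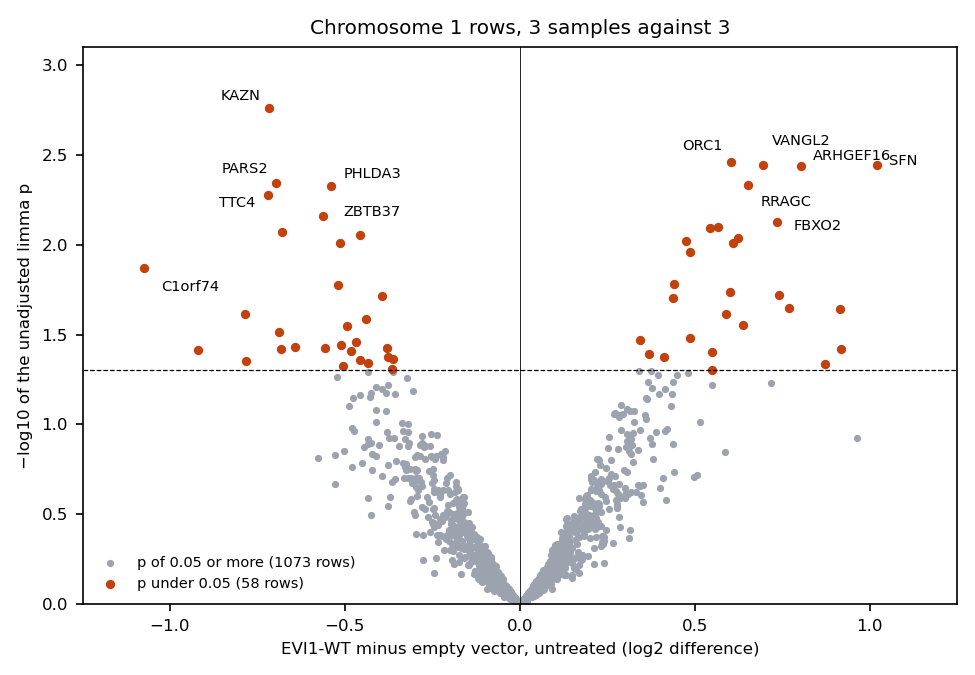
Difference between EVI1-WT and empty vector samples (log2, x axis) against −log10 of the unadjusted limma p (y axis) for the 1131 chromosome 1 rows, with called rows in orange and the threshold of 0.05 as a dashed line. The 58 called rows fall on both sides in similar number (28 higher and 30 lower), and only SFN and C1orf74 lie beyond 1 log2 unit.

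The 3 batches shared a direction in a minority of rows. EVI1-WT was above the empty vector in all 3 batches in 162 rows (14.3%, against 14.7% of all rows) and below it in all 3 in another 162 (14.3%, against 13.9% of all rows). The 3 EVI1-WT values lay wholly above the 3 empty vector values in 66 rows (5.84%, against 7.31% of all rows) and wholly below in 70 (6.19%, against 6.70% of all rows). These counts on chromosome 1 were near or under the background. An exact two-sided permutation test of 3 against 3 samples, without the pairing by batch, cannot give less than p = 0.1, which every row without overlap reaches.

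Among the 12 genes with the lowest p that were higher in every batch, ORC1, the largest subunit of the origin recognition complex that licenses DNA replication, led the list. ORC1 (chr1:52372829-52404423, minus strand) was at -0.50, -0.41 and -0.39 with the empty vector and at 0.02, 0.18 and 0.32 with EVI1-WT. The empty vector samples were tightly grouped and all 3 lay below every EVI1-WT sample. The difference was 0.60 (SE 0.16, adjusted p = 0.798 by limma).

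SFN, which encodes 14-3-3 sigma, a p53-induced inhibitor of mitotic entry that is best known in epithelial cells, had the largest difference of all chromosome 1 genes in the upward direction. SFN (chr1:26863149-26864456, plus strand) was at -0.50, -0.70 and -0.21 with the empty vector and 0.30, 0.76 and 0.59 with EVI1-WT. The groups were separate, and batch 2 showed the widest gap, 1.46 against 0.80 in batches 1 and 3. On average the difference was 1.02 (SE 0.28, adjusted p = 0.798 by limma).

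VANGL2, a membrane protein of the planar cell polarity pathway, was at -0.91, -0.52 and -0.63 with the empty vector and at -0.18, -0.10 and 0.31 with EVI1-WT. Each EVI1-WT value was above each empty vector value, by 0.70 on average (SE 0.19). ARHGEF16, a guanine nucleotide exchange factor, was at -0.46, -0.42 and -0.03 with the empty vector and at 0.70, 0.55 and 0.25 with EVI1-WT. Its difference of 0.80 (SE 0.22) was 1.16, 0.97 and 0.28 within batches 1, 2 and 3, so batch 3 contributed least. RRAGC, a Rag GTPase that carries amino acid signals to mTORC1, was at -0.73, -0.63 and -0.28 against 0.23, 0.05 and 0.04, again without overlap and with a difference of 0.65 (SE 0.18).

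The remaining 7 genes of the upper list were higher by 0.48 to 0.73. FBXO2, the sugar-recognising F-box protein of a ubiquitin ligase, differed by 0.73, the nucleotidase BPNT1 by 0.57 and HOOK1, a linker of endosomal cargo to microtubules, by 0.54. KIAA1522 differed by 0.62 and RCAN3, a calcineurin regulator, by 0.49. The 3 EVI1-WT values of RCAN3, 0.30, 0.27 and 0.28, were almost identical. UHMK1, a kinase that acts on splicing factors, differed by 0.61, but its groups overlapped because the batch 3 empty vector sample, at -0.08, was above the batch 1 EVI1-WT sample, at -0.13. PINK1-AS differed by 0.48 and shares exons with DDOST on its own strand and with PINK1 on the other, so that its reads may be split with those genes. RRAGC shares exons with an annotated gene without a symbol on its own strand. FBXO2 and RCAN3 also overlap exons of genes on the other strand.

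Lower with EVI1-WT, and first on chromosome 1 by p, was KAZN, which encodes kazrin, a protein of cell junctions. KAZN (chr1:13892792-15118043, plus strand) was at 0.29, 0.70 and 0.38 with the empty vector and at -0.13, -0.43 and -0.22 with EVI1-WT. Every EVI1-WT sample was below every empty vector sample, and batch 2 again had the widest gap. The difference was -0.72 (SE 0.17, adjusted p = 0.669 by limma).

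PARS2 and TARS2 encode mitochondrial aminoacyl-tRNA synthetases, for proline and threonine, and both were in the lower list. PARS2 (chr1:54756898-54764523, minus strand) was at 0.74, 0.36 and 0.44 with the empty vector and at -0.61, -0.14 and 0.21 with EVI1-WT, and its difference within a batch was -1.35, -0.51 and -0.23. Its difference was -0.70 (SE 0.20, adjusted p = 0.798 by limma). TARS2 was at 0.17, 0.21 and 0.03 against -0.35, -0.16 and -0.27, a smaller difference of -0.39 (SE 0.14) with little spread in either group.

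PHLDA3, a p53-induced repressor of AKT, was at -0.50, -0.04 and 0.28 with the empty vector and at -0.86, -0.54 and -0.48 with EVI1-WT. It was lower in each batch, but the batch 1 empty vector sample reached into the range of the EVI1-WT samples. The difference was -0.54 (SE 0.15). TTC4, a co-chaperone with tetratricopeptide repeats, was at 0.07, -0.15 and 0.15 against -0.49, -0.68 and -0.92, without overlap, and it shares exons with the readthrough gene MROH7-TTC4. Its difference was -0.72 (SE 0.21).

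C1orf74 had the largest negative difference on the chromosome, with values of 0.51, 0.79 and 1.04 with the empty vector and 0.07, -0.45 and -0.51 with EVI1-WT. The groups did not overlap, but the difference of -1.07 had a wide error (SE 0.37), and it shares exons with other genes on both strands. The other 6 genes of the lower list differed by -0.46 to -0.79. They were ZBTB37, a BTB zinc finger protein (-0.56), GLMN, or glomulin (-0.68, with overlapping groups), COG2 of the Golgi tethering complex (-0.46), the guanine nucleotide exchange factor ARHGEF11 (-0.51), the pseudogene PTGES3P1 (-0.52), and a row labelled ZNF670 whose identifier is that of the readthrough ZNF670-ZNF695 (-0.79). PTGES3P1 can share reads with its parent gene and ZNF670 with the single genes of the readthrough, so both are uncertain. On their own strand, PHLDA3 shares exons with an annotated gene without a symbol and TARS2 with MIR6878. KAZN and COG2 overlap exons of TMEM51-AS1 and AGT on the other strand.

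**Figure D3:**
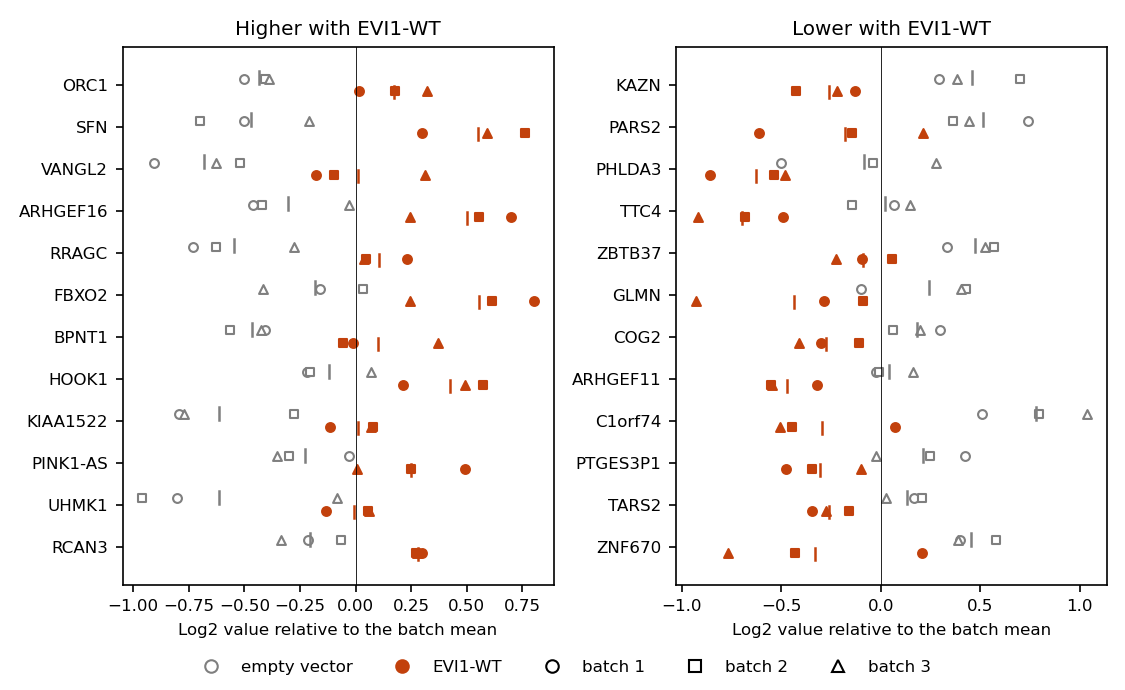
Log2 value relative to the batch mean (x axis) of each empty vector sample (open grey) and EVI1-WT sample (filled orange) for the 12 genes with the lowest p in each direction (y axis), with batches as circles (1), squares (2) and triangles (3) and group means as vertical bars. The groups are separate in 21 of the 24 genes and overlap in UHMK1, PHLDA3 and GLMN. The genes were chosen by p and by sign in these same samples, which favours separation. Of all rows 7.31% were separate with EVI1-WT above and 6.70% with it below.

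Gene lists were compared next, each by its counts and its median difference beside those of all rows, in which 2.57% were called higher, 2.31% lower and the median was near 0. Genes linked to EVI1 itself, its partners, relatives and targets, gave no call. Of 11 listed genes 10 had a row (TAL1 had none), none was called and the median was -0.01. HDAC1, a histone deacetylase that EVI1 recruits, was at -0.11, -0.07 and -0.09 with the empty vector and at 0.18, 0.25 and -0.01 with EVI1-WT. The groups did not overlap, but the difference was only 0.23 (95% confidence interval -0.11 to 0.57) and was not called.

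JUN, an AP-1 subunit, differed by -0.33 (-0.82 to 0.17). GFI1, RUNX3 and SKI, regulators of blood development and of TGF-beta signalling, differed by 0.16, 0.22 and 0.11. The PR domain relatives PRDM16 and PRDM2 differed by -0.14 and -0.12, RBBP4 by 0.12 and the BMP target ID3 by -0.14. All 10 intervals lay between -1 and 1. The list of 15 haematopoietic and leukaemia genes had no call either, with a median of 0.16 and BCL10 (0.41) as the member with the lowest p among the positive differences, and that of 7 TGF-beta and BMP signalling genes had none, with a median of 0.10.

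ADGRB2, MOV10 and TMEM222 were also measured by RT-PCR in the study and were chosen there on these samples. None of the 3 was called in this comparison. The RT-PCR values of the study are given relative to untransfected cells, so a difference from the empty vector does not check them. ADGRB2, an adhesion receptor, was at -0.16, 0.58 and 0.42 with the empty vector and at 0.55, 0.40 and 0.32 with EVI1-WT. Only the batch 1 empty vector sample was low, and the difference was 0.14 (95% confidence interval -0.30 to 0.58). MOV10, an RNA helicase, differed by 0.07 (-0.40 to 0.53). TMEM222 was lower in each batch, but its groups overlapped and its difference was -0.25 (-0.65 to 0.15).

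p53 pathway genes split in direction. Of 13 members 2 were called higher and 2 lower, and the median was -0.18. SFN and PHLDA3, both described above and both known p53 targets, lay at the opposite ends of the list. BTG2, an antiproliferative p53 target, was at -0.51, -0.46 and -0.14 with the empty vector and at -0.22, 0.36 and 0.07 with EVI1-WT, a difference of 0.44 (SE 0.16) with overlapping groups. TP73, the p53 relative, was at -0.05, -0.03 and 0.31 against -0.30, -0.27 and -0.29, a difference of -0.36 (SE 0.16) without overlap. GADD45A, a stress-induced cell cycle inhibitor, differed by -0.42 and was not called.

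Immediate early and stress kinase genes had 1 call, BTG2 again, while 10 of the 12 members had a negative difference and the median was -0.17. The list shares 4 genes, BTG2, GADD45A, PLK3 and IER5, with the p53 list. Replication and repair genes had 1 call among 16 members, ORC1, with 11 positive and 5 negative differences and a median of 0.07. None of the 25 mitosis genes was called, with a median of 0.02, and of these LMNA (0.19) and MAD2L2 (-0.18) had the lowest p in each direction.

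Mitochondrial ribosomal protein and tRNA synthetase genes had negative medians and 1 call in each list. Among 8 mitochondrial ribosomal proteins, MRPL24 was called lower, at 0.56, 0.15 and 0.25 with the empty vector and 0.09, -0.07 and -0.15 with EVI1-WT, and the median of the list was -0.18. Of 7 tRNA synthetase and serine synthesis genes, a list that did not include PARS2 and TARS2, 1 was called lower and the median was -0.24.

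Cytosolic ribosomal proteins (5 rows, median -0.02) had no call. RPS27 had the widest range of the list, at -1.26, -0.73 and 0.09 with the empty vector and -0.10, 0.02 and 1.07 with EVI1-WT. It was higher in each batch, by 1.16, 0.75 and 0.98, although the values moved between batches and the groups overlapped. The SE of the average difference of 0.96 was 0.57 in the fit of the 4 untreated groups, in which an untransfected sample was at -2.17. RPL5, RPL11 and RPL22 differed by -0.16 to 0.04. Respiratory chain subunits (9 rows, median 0.07), proteasome subunits (4, -0.03), snoRNA host genes (3, -0.05), sterol synthesis genes (7, -0.06) and RNA helicases (4, 0.08) had no call.

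Splicing and chromatin genes gave no call. Of 23 splicing factors and 30 chromatin regulators none passed the threshold, and both medians were 0.02. TAF13, a subunit of the general factor TFIID, was the chromatin gene with the lowest p (a difference of 0.37) and fell just outside the threshold. In the list of 10 thiol antioxidant and glutathione genes only PRDX1, a peroxiredoxin, was called. PRDX1 was at -0.03, 0.05 and -0.91 with the empty vector and at 0.15, 0.02 and 0.59 with EVI1-WT. Its difference of 0.55 (SE 0.25) was just inside the threshold and rested on batch 3, where it was 1.5, against 0.18 and -0.03 in batches 1 and 2.

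**Figure D4:**
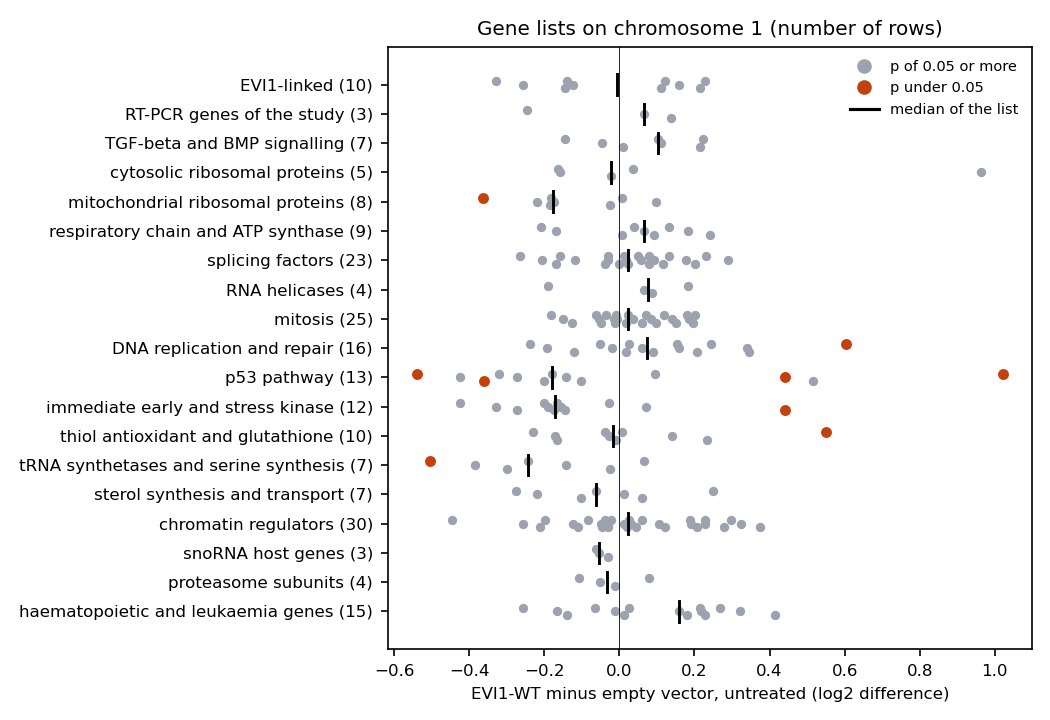
Difference between EVI1-WT and empty vector samples (log2, x axis) for each chromosome 1 member of 19 gene lists (y axis, number of rows in parentheses), with called genes in orange, other genes in grey and the list median as a black bar. Most lists centre near 0, and calls are scattered over 6 lists, with calls in both directions only in the p53 list.

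EVI1-AQA, the other EVI1 construct, was compared directly with EVI1-WT in untreated cells. At an unadjusted p under 0.05, 386 of all rows were called (3.33%), 48 of them on chromosome 1 (24 higher and 24 lower with EVI1-AQA), while a fit of only the 6 samples with the batch as a block called 744. In the fit of 12 samples none passed an adjusted p of 0.05 by limma, the smallest being 0.731. Of the 28 rows called higher with EVI1-WT 1 was among them, SH2D5, and of the 30 called lower 5. TTC4, for example, was at -0.15, -0.36 and 0.04 with EVI1-AQA, between the empty vector and EVI1-WT, and differed from EVI1-WT by 0.54. PHLDA3 and TP73, also among the 5, differed between the constructs by 0.45 and 0.42. LINC00339 and OMA1 were the remaining 2. The same 3 EVI1-WT samples had chosen the rows called higher or lower, which favours such calls, so these counts do not test the constructs. EVI1-AQA minus the empty vector shares the empty vector samples with the comparison described here, and 10.6% of all rows were called in it.

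The called rows could also be looked up in samples that the comparison did not use. EVI1-AQA minus untransfected cells, both untreated, shares no sample with EVI1-WT minus the empty vector, although it adds the effect of transfection and although these 6 samples entered the estimate of the spread. Of the 28 rows called higher, 25 were above 0 in it, with a median of 0.45 (batch medians 0.43, 0.51 and 0.41). Of the 30 rows called lower, 25 were below 0, with a median of -0.42 (-0.38, -0.25 and -0.41). Of all 1131 chromosome 1 rows 576 were above 0 and 555 below, with a median of 0.01. The called rows thus kept their sign in most cases in samples outside the comparison, although their number was near the background.

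ORC1 was at -0.34, -0.21 and -0.71 in untransfected cells and at 0.35, 0.33 and 0.26 with EVI1-AQA. ARHGEF16 was at -0.58, -0.07 and -0.43 against 1.04, 0.55 and 0.51, and RRAGC at -0.55, -0.21 and -0.67 against 0.50, 0.25 and 0.27. For all 3 genes the samples with an EVI1 plasmid, of either form, were all above the samples without one. FBXO2, BPNT1, KIAA1522, PINK1-AS and RCAN3 were separate in the same way, but SFN, VANGL2, HOOK1 and UHMK1 of the upper list were not. In batch 3 SFN was at -0.11 with EVI1-AQA and at 0.10 in untransfected cells. The share of all rows with this separation was not computed. KAZN, of the lower list, was not separated by the presence of an EVI1 plasmid. Its values were -0.15, -0.15 and 0.17 in untransfected cells and -0.21, 0.03 and -0.25 with EVI1-AQA. The empty vector samples of KAZN thus stood above the 3 other groups. ZBTB37 was likewise high only with the empty vector, at 0.33, 0.57 and 0.52, against -0.06, -0.34 and 0.09 in untransfected cells.

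Of the hydrogen peroxide libraries 3 went against their labels in the unnamed row that separated the untreated samples. The library labelled EVI1-AQA in batch 1 was at -2.60 and that labelled EVI1-WT in batch 2 at -4.38, like samples without EVI1, and the library labelled empty vector in batch 2 was at 4.36, like samples with it. For the present comparison this touches both libraries of batch 2, and it rests on 1 row. Values with the labels of these libraries exchanged were not computed. The values of the called rows with hydrogen peroxide are therefore given with and without batch 2, a choice made after these values were seen.

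Under hydrogen peroxide the rows called higher in untreated cells had a median difference between EVI1-WT and the empty vector of -0.0022, with batch medians of 0.17, -0.18 and 0.23. Of the 28 rows 14 were above 0, against 52.0% of all chromosome 1 rows, and 2 were called higher again, where 3.23% of all rows were called in either direction. Without batch 2 the median was 0.18 and 20 of 28 were above 0. The rows called lower had a median of -0.24 with batch 2 and -0.27 without it, 25 of 30 were below 0 either way and 3 were called lower again, although the batch 2 median was only -0.03.

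A test of the difference itself, by the interaction of construct and treatment over all 24 samples, called 298 rows (2.57% of all rows), 29 of them on chromosome 1, at an unadjusted p under 0.05, and 227 of all rows when batch 2 was left out. None passed an adjusted p of 0.05 by limma. SFN showed how far batch 2 set these values, with differences under hydrogen peroxide of 1.34, -1.24 and 0.21 in batches 1, 2 and 3. ARHGEF16 behaved alike, at 0.59, -1.01 and 0.77. RCAN3, at 0.20, 0.30 and 0.28, and PINK1-AS, at 0.25, 0.44 and 0.85, were higher with the library labelled EVI1-WT in each batch. Of all rows 12.2% were higher in all 3 batches with hydrogen peroxide.

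**Figure D5:**
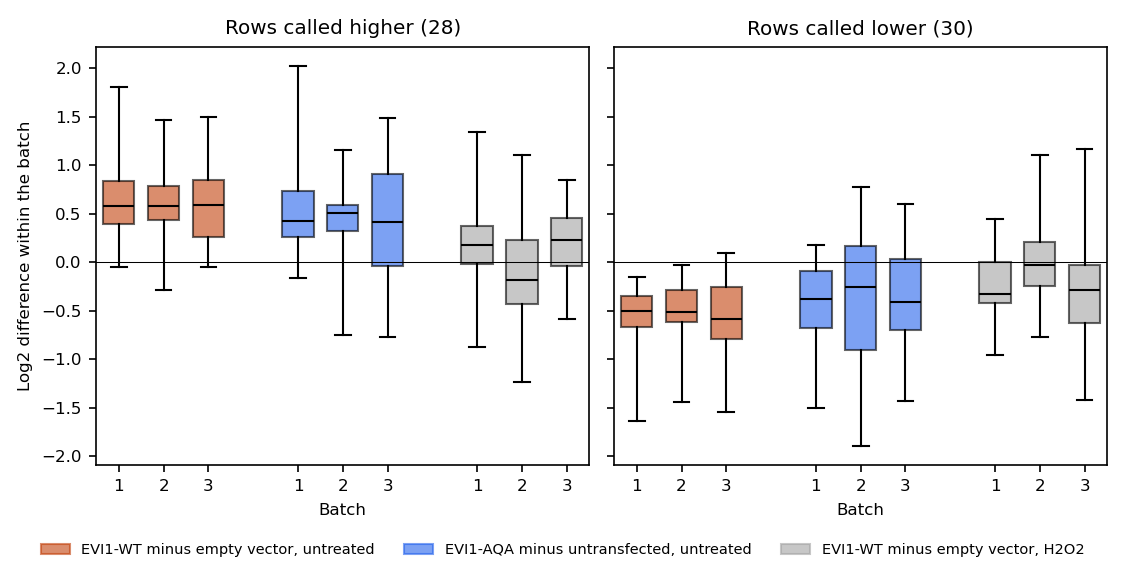
Log2 difference within each batch (y axis) of the 28 chromosome 1 rows called higher (left) and the 30 called lower (right), for EVI1-WT minus empty vector untreated (orange, the comparison that chose them), EVI1-AQA minus untransfected untreated (blue) and EVI1-WT minus empty vector with hydrogen peroxide (grey), with boxes from the first to the last quartile, the median as a line and whiskers to the extremes. The blue medians lie on the same side of 0 as the orange ones in all 3 batches, and the grey medians of the higher rows fall to -0.18 in batch 2.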

How the data were processed

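PolyA RNA of 24 HEK293 samples was sequenced by QuantSeq 3′ libraries. Per the study's methods, the authors ordered alignments against the Ensembl release 90 annotation of GRCh38 and analysed the data in Qlucore Omics Explorer 3.3 with a cut-off of 10 FPKM. The deposited values were read as log2 expression, the usual scale of that program, but neither the base nor the program that wrote the table is stated, and every row has a mean of 0 within each batch of 8, so a difference within a batch is unaffected by the centring. Depth is unknown, which leaves counting error out of reach.

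Samples were grouped by their labels, and batch numbers, which the labels give, pair the samples. limma 3.58.1 in R 4.3.3 was fitted over all 11579 rows and the 12 untreated samples, with 4 groups and the batch as a block (6 residual and 4.9 prior degrees of freedom). Tests were two-sided with Benjamini-Hochberg adjustment. Same-batch EVI1-WT and empty vector samples deviated from their group means with correlations of -0.09, -0.12 and -0.07. Centring each row within a batch by itself makes such correlations negative, so they do not show whether samples of a batch vary together. Hydrogen peroxide samples did not enter this fit. They entered the fit of all 24 samples that gave the interaction test and the calls under hydrogen peroxide, and some of the alternatives. The fit was tested on simulated data first. Positions came from GENCODE 44 (94.1% of identifiers matched), and RefSeq promoter windows matched 18 of the 24 leading genes. The members, gene lists and thresholds were chosen with earlier results of these data known. Named were the 12 lowest p in each direction with 1 sign in all batches, all members of lists of up to 6 rows, the lowest p in each direction of longer lists, and the EVI1-linked and RT-PCR genes. TP73, PLK3, IER5, SH2D5, LINC00339 and OMA1 were named after their values were seen. A few members that this rule names are not reported here. Alternatives changed the block, the samples fitted, the moderation, the scaling and the replicates.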

Additional observations from a re-analysis of the deposited data

Results flagged for a closer look

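Of the genes reported here 3 were lower with EVI1-WT than with the empty vector in all 3 untreated batches and higher in all 3 batches with hydrogen peroxide. TTC4 differed by -0.72 untreated and 0.23 with hydrogen peroxide (a change of 0.95, SE 0.28), LSM10 by -0.26 and 0.27 and LMO4 by -0.17 and 0.13. The change with treatment was under an unadjusted p of 0.05 by limma in TTC4 and LSM10, and each of the 3 had an adjusted p of 1.00. The 3 genes were picked for this reversal of sign in the same values, so the p-values are not independent support for it. Batch 2 with hydrogen peroxide, whose 2 libraries go against their labels in 1 row, is included. Without it the differences with hydrogen peroxide were 0.24 for TTC4, 0.25 for LSM10 and 0.07 for LMO4, and the change with treatment stayed under that threshold in TTC4 but not in LSM10.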

How the results depend on the processing

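Of the 24 leading chromosome 1 genes, whose sign in every batch was fixed by their choice, 6 (ARHGEF16, BPNT1, KAZN, ORC1, VANGL2 and ZBTB37) stayed under an unadjusted p of 0.05 in each alternative run. Without the replicate block, 36 chromosome 1 rows were called higher and 38 lower, of which 57 were among the 58 called with the pairing by batch, and 408 and 344 of all rows. With only the 6 samples compared and the block, 44 and 46 chromosome 1 rows were called higher and lower, 460 of all rows higher, and 744 rows between EVI1-AQA and EVI1-WT (386 in the fit reported). Without moderation or block, the 6 samples gave 462 higher and 409 lower of all rows, and 581 rows between the constructs. Quantile normalization gave 47 chromosome 1 rows higher and 471 of all rows higher. Leaving out 1 batch at a time gave 16 to 31 chromosome 1 rows higher, 14 to 35 lower, 193 to 334 of all rows higher, 170 to 324 lower and 322 to 529 between the constructs, the lowest without replicate 1, and between 0 and 1 row at an adjusted p under 0.05. The interaction with hydrogen peroxide called 227 to 408 rows under its alternatives (298 as reported). The adjusted row was lost (0 rows) without replicate 3 and in both fits of all 24 samples, with and without the block. Without replicate 1, 8 of the 24 genes lost their call, 7 without replicate 2 and 6 without replicate 3; the cause was not tested. Only 22 of the 58 chromosome 1 calls were shared with the fit without replicate 1. With 3 samples a group and no depth, differences of around 0.4 are near the limit of detection.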
